A study of Mus musculus with 219 samples.

Results

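The ionotropic and metabotropic glutamate receptors and the GABA receptors of mouse pre-frontal cortex were described gene by gene. The members were chosen by symbol from the protein-coding genes of GENCODE vM21: the Gria, Grik, Grin, Grid and Grm genes, the Gabra, Gabrb, Gabrg and Gabrd genes, and Gabbr1 and Gabbr2. This gave 41 of the 55487 genes in the count tables, of which 38 passed the filter on low counts. They were 4 AMPA, 5 kainate, 7 NMDA, 2 delta, 8 metabotropic glutamate, 13 GABA-A and 2 GABA-B receptor genes. No expression value entered the choice.

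Glutamate is the main excitatory and GABA the main inhibitory transmitter of the cortex. AMPA, kainate and NMDA receptors are glutamate-gated cation channels built from several subunits, and the mix of subunits sets their kinetics and calcium permeability. GABA-A receptors are chloride channels assembled mostly from alpha and beta subunits with a gamma or delta subunit, and the delta subunit places them outside synapses. Metabotropic glutamate receptors and the GABA-B dimer of Gabbr1 and Gabbr2 products signal through G proteins.

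RNA of the left pre-frontal cortex was sequenced after ribosomal RNA depletion with a strand-preserving kit, and the labels call the samples biological replicates. An atlas of 92 libraries covered wild-type mice (WT/WT, Snord116+/+ and Ctg-/-) of about 12 weeks, kept in home cages under 12:12 h light and dark. They were collected every 3 h at 8 zeitgeber times (ZT0 is lights on), with 6 mice per sex and time and 5 at ZT18 and ZT21. A second collection of 126 libraries was made at ZT6 after 22 days of entrainment begun at about 8 weeks, at 22 °C, following 7 days of acclimation. It crossed the sexes, a 12:12 or 11:11 h light cycle, 4 genotypes and 2 sets. Mice of the calorimetry set were in indirect calorimetry cages and were collected in constant darkness. Those of the running wheel set had wheels for 7 days and were collected under light and dark. The genotypes were WT/WT (32 libraries), HET/WT (Snord116+/- without Ctg, 32), WT/TG (Snord116+/+ with Ctg+/-, 30) and HET/TG (Snord116+/- with Ctg+/-, 32). The labels do not say which parent the Snord116 allele came from, nor what drives Ctg. Each set held 63 libraries. 1 further running wheel male, WT/TG under 12:12, was not analysed here.

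Library totals ran from 13 to 18.4 M counts in the atlas and from 12.7 to 29.9 M counts at ZT6. Markers of cortical excitatory neurons were high in every library, but 4 atlas libraries and 2 ZT6 libraries stood apart from their own groups over all genes. The atlas libraries were female ZT21 replicate 4, female ZT03 replicate 5, female ZT00 replicate 6 and male ZT00 replicate 1. At ZT6 they were both calorimetry male HET/TG libraries, replicate 4 under 11:11 and replicate 3 under 12:12. The summed choroid plexus markers, in counts scaled to library size (CPM), reached 750 in the ZT03 library against an atlas median of 12.7, and the summed striatal markers 1059 CPM in the ZT21 library against 304. Libraries that did not stand apart reached 967 and 1599 CPM, so neither sum sets these libraries apart on its own. Results that rest on these libraries are given with and without them. 1 running wheel female under 11:11 labelled HET/WT had 167 CPM of Snhg14, the host transcript of Snord116, where the other HET/WT libraries had 20.8 to 54.3 and WT/WT libraries 116 to 281. It is called the library labelled HET/WT.

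Levels between genes were compared in CPM per kilobase of exon, averaged over the atlas. The length was that of all annotated exons of a gene merged, not of the transcripts expressed. The order of genes therefore depends on this length and can differ from the order in CPM. GABA-A genes summed to 277 ± 14.1 (SD, n = 92), GABA-B to 134 ± 5.99, AMPA to 126 ± 11.8 and NMDA to 120 ± 9.49. Metabotropic glutamate genes summed to 99.1 ± 6.25 and kainate to 60.4 ± 3.19. So the GABA-A genes summed above any single glutamate class, while the GABA-B sum lay within 1 AMPA SD of the AMPA sum. AMPA and NMDA sums lay within 1 SD of each other. The glutamate genes are split over more classes than the GABA genes, and the totals of the 2 transmitters were not compared.

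**Figure D1:**
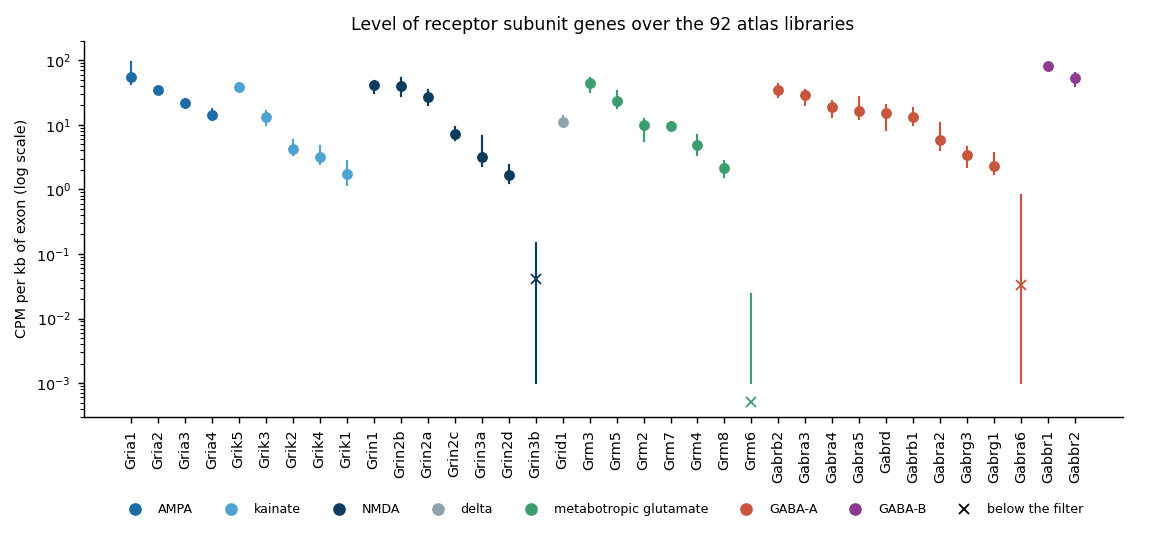
Mean level of 36 receptor genes over the 92 atlas libraries in CPM per kb of exon (log axis), coloured by class, with bars from the lowest to the highest library and crosses for the 3 genes below the filter; a bar that starts at the bottom reaches 0. Gabbr1 is the highest at 81.3 and Grin3b, Gabra6 and Grm6 lie far below the rest.

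Among the channel-forming glutamate subunits Gria1 (chr11:57011387-57330244, plus strand) was highest, at 54.9 ± 11.5 CPM per kb (SD, n = 92). Gria2, whose edited subunit makes AMPA receptors impermeable to calcium, was at 35 ± 1.82, and Gria3 and Gria4 followed at 21.7 ± 1.59 and 14.4 ± 0.989. The spread of Gria1 between libraries was thus the widest of its class in these units. In CPM without the length, Grin2b (984), Gria2 (544), Grin2a (490) and Grin1 (399) were above Gria1 (332). The obligatory NMDA subunit Grin1 was at 41.2 ± 2.85 CPM per kb. Its partners Grin2b (39.6 ± 5.53) and Grin2a (27.3 ± 3.24) were well above Grin2c (7.26 ± 0.653) and Grin2d (1.67 ± 0.193), and Grin2b did not differ from Grin1 beyond the spread. Grik5, a high-affinity kainate subunit that needs a Grik1 to Grik3 partner, held 63.3% of the kainate sum, and Grik1 2.82%.

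Grm3 led the metabotropic receptors at 44.3 ± 4.69 CPM per kb, followed by Grm5, the main postsynaptic group I receptor of cortex, at 23.1 ± 3.09. In CPM the order was reversed, with Grm5 at 237 and Grm3 at 135. Among the GABA-A genes, the beta subunit gene Gabrb2 was at 34.1 ± 2.89 CPM per kb and the alpha subunit gene Gabra3 at 28.8 ± 2.84. Gabra2 was at 5.85 ± 1.08 and Gabrg1 at 2.26 ± 0.307. Grm6, the receptor of retinal ON bipolar cells, had 4 reads in all 92 atlas libraries together. Gabra6, a subunit of cerebellar granule cells, had 116 and Grin3b 195. These 3 genes were below the filter in both tables. 19 of the 41 genes share exon bases with another annotated gene, among them Grin1 with its antisense Grin1os (1307 bases) and Gabra4 with Gabrb1 (46 bases).

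The rhythm was tested with a 24 h cosine and sine per gene and sex as a term, by edgeR's quasi-likelihood test with Benjamini-Hochberg adjustment over 17193 genes at an adjusted p of 0.05. A rhythm was called for 26 of 38 receptor genes (68.4%), where 41.4% of all genes were called. All 4 AMPA genes, 4 of 5 kainate, 5 of 7 metabotropic glutamate and 10 of 12 GABA-A genes were called. NMDA genes were called in 2 of 6 (Grin1 and Grin3a), and the delta receptor gene Grid1 was called. Neither GABA-B gene was called. The median log2 peak-to-trough difference of the called receptor genes was 0.14, against 0.19 for all called genes, so most of these rhythms were shallow. Fitted peaks fell between ZT18 and ZT6 for 13 called members and between ZT6 and ZT18 for the other 13. Of all called genes, 53.9% peaked between ZT18 and ZT6, so the members were split much as all genes were. In bulk tissue, fewer cells of a type and less RNA per cell cannot be told apart.

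The count of called members depended on which libraries and terms were used. Without the 4 atlas libraries that stood apart, 25 members were called, 23 of them shared, with 38.5% of all genes called. With 3 marker sums as covariates (striatal neuron, choroid plexus and olfactory bulb), 18 were called, 17 of them shared, with 34.3% of all genes called. Grin3a, Gabrb1 and Gabrb2 lost their call under both. With time as 8 levels in place of the cosine and sine, 18 members were called, all of them shared, with 33.9% of all genes called. Choroid plexus markers had medians of 54.8 CPM at ZT0 and 57.7 at ZT3, and of 6.59 to 12.1 at the other times, and their part in the rhythm was not tested beyond these fits.

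**Figure D2:**
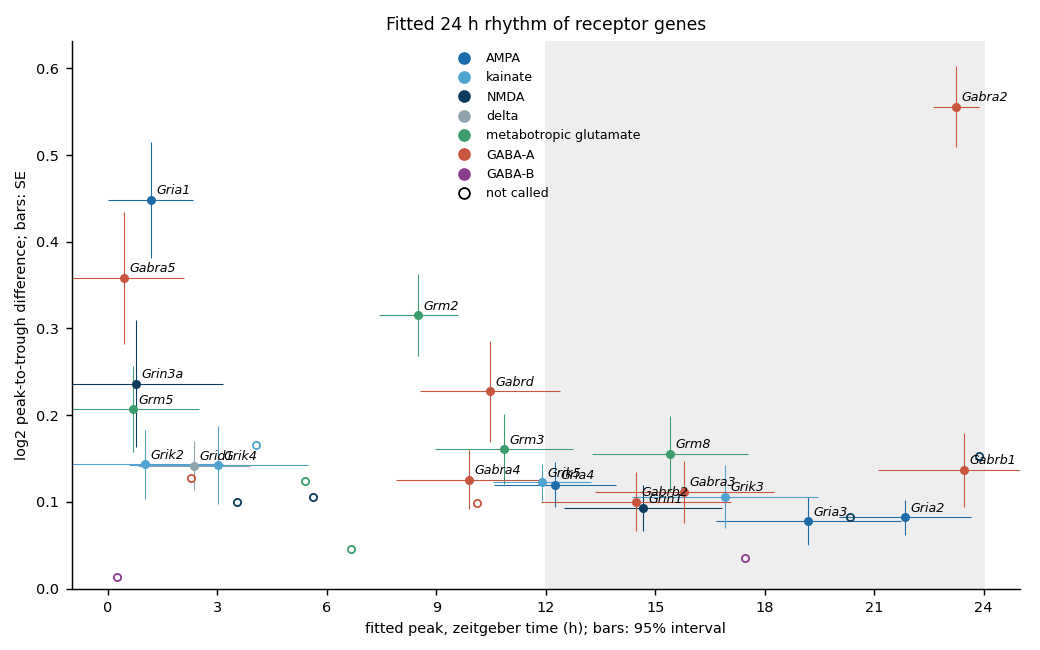
Fitted peak time (h, with 95% interval) against the log2 peak-to-trough difference (with SE) for 33 receptor genes tested in the atlas, coloured by class; open points were not called and the grey area is the dark phase. Gabra2 lies highest at 0.56 with its peak at ZT23.2, and most genes lie below 0.2.

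Gabra2 (chr5:70957597-71095849, minus strand) had the largest rhythm of any member. This alpha2 subunit gene is a neighbour of Gabrg1, Gabra4 and Gabrb1 in a cluster on chromosome 5. Its lowest, median and highest values were 32, 35.9 and 41.7 CPM at ZT12 (n = 12) and 42.8, 51.6 and 67.4 at ZT3 (n = 12). They were 43.1, 49.7 and 81.1 CPM at ZT21 (n = 10). Every library at ZT21, ZT0 and ZT3 lay above every library at ZT12. The fitted peak was at ZT23.2, shortly before lights on, with a peak-to-trough ratio of 1.47 (95% interval 1.38 to 1.57; log2 0.56 ± 0.05 SE, adjusted p = 1.32e-16 by edgeR's quasi-likelihood test). Among all 7117 called genes its ratio ranked 692. Without the libraries that stood apart the log2 difference was 0.49 (adjusted p = 1.34e-17), and with the 3 marker covariates 0.50. It was called in females alone (0.51) and in males alone (0.60).

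The start regions of 4 receptor genes are printed, for these reasons. Gabra2 and Gabra4 are neighbours with peaks far apart. Grm2 had the largest rhythm of the called members with peaks between ZT6 and ZT18. Grin1 was the sole member with a clock-type E-box in this window. RefSeq (GRCm38.p6) gave promoters for 26 of the 41 genes, 250 bases before to 50 after a start, 33 promoters in all. Each is written 5′ to 3′ on the gene's strand, with capitals for matches on either strand to GGGCGG (a GC-box) and CACGTG (an E-box). They lie at chr5:71095800-71096099 (Gabra2), chr5:71658259-71658558 (Gabra4), chr9:106656060-106656359 (Grm2) and chr2:25319138-25319437 (Grin1), all on the minus strand.
Gabra2: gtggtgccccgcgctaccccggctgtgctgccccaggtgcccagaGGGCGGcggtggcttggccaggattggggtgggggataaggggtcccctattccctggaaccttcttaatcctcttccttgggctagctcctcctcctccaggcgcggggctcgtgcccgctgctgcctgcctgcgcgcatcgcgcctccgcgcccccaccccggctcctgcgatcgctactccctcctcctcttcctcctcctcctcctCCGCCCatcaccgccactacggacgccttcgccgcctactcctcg
Gabra4: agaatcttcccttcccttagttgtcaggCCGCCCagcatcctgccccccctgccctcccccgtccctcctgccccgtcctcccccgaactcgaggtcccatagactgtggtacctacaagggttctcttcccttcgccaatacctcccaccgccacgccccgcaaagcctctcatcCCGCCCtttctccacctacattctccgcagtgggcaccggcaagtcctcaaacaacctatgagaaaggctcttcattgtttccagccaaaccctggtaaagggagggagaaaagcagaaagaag
Grm2: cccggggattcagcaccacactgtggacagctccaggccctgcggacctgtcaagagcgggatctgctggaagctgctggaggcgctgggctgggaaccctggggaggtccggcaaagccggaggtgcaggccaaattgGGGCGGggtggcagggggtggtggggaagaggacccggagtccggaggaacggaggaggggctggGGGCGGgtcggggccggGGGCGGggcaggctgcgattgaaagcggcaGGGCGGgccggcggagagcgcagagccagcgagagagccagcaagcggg
Grin1: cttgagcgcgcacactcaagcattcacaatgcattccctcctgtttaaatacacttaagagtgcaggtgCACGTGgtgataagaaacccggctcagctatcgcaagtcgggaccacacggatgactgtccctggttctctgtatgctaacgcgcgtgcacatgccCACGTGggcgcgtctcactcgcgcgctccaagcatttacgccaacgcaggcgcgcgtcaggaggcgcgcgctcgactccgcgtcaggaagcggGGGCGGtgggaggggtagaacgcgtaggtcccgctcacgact
GGGCGG was found in 16 of the 33 receptor promoters and in 35.66% of all 32851 promoters of this length. CACGTG was found in 1, with 2 matches in Grin1, and in 7.15% of all promoters. The clock-related letters TTATGTAA (a D-box) and TGACGTCA (a cAMP response element) were in none of the receptor promoters, against 0.9376% and 1.79% of all. AGGTCA, which orphan receptors of the ROR family bind, was in 2, against 16.26% of all.

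Other GABA-A genes peaked at other phases, including neighbours on the same chromosome. Gabra4 (chr5:71569749-71658308, minus strand), whose subunit often pairs with delta, had a lowest, median and highest of 111, 121 and 139 CPM at ZT12 and of 81.2, 108 and 131 at ZT3. The times overlap. Its fitted peak was at ZT9.91 (log2 0.13 ± 0.03 SE, adjusted p = 0.00632 by edgeR's quasi-likelihood test), at nearly the opposite phase to Gabra2. Gabrd, the delta subunit gene, peaked at ZT10.5 (0.23 ± 0.06, adjusted p = 0.00359). Its libraries at ZT3 ran from 23.6 to 50.6 CPM, a much wider range than the 42 to 52.7 at ZT12.

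Gabra5, an alpha subunit gene of extrasynaptic receptors, is given by sex because it had the smallest p of the members in the test of rhythm by sex. In males its lowest, median and highest values at ZT3 were 41, 71.4 and 80.1 CPM (n = 6) and at ZT12 39.5, 40.7 and 45.4 (n = 6). In females they were 42.5, 47.5 and 56.2 at ZT3 and 40.6, 44.1 and 48.2 at ZT12. Most ZT3 males were above every female of that time, and the highest female of any time was a ZT0 library at 76.0, 1 of those that stood apart. Over both sexes the log2 difference was 0.36 ± 0.08 SE (peak ZT0.451, adjusted p = 3.26e-04 by edgeR's quasi-likelihood test). It was 0.61 ± 0.12 in males alone (adjusted p = 6.75e-04) and 0.17 ± 0.07 in females alone (adjusted p = 0.222).

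The difference of the rhythms between the sexes was itself tested. No member passed (5 had an unadjusted p under 0.05, and DESeq2 also called 0), where 0.0756% of all genes passed. Gabra5 had the smallest p of the members, with an adjusted p of 0.227 by edgeR's quasi-likelihood test. Without the 4 libraries that stood apart, among them the female at 76.0 CPM, its adjusted p was 0.0200 and it was the sole member called. Females alone gave a call for 10 members (18.5% of all genes) and males alone for 21 (24.8%).

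**Figure D3:**
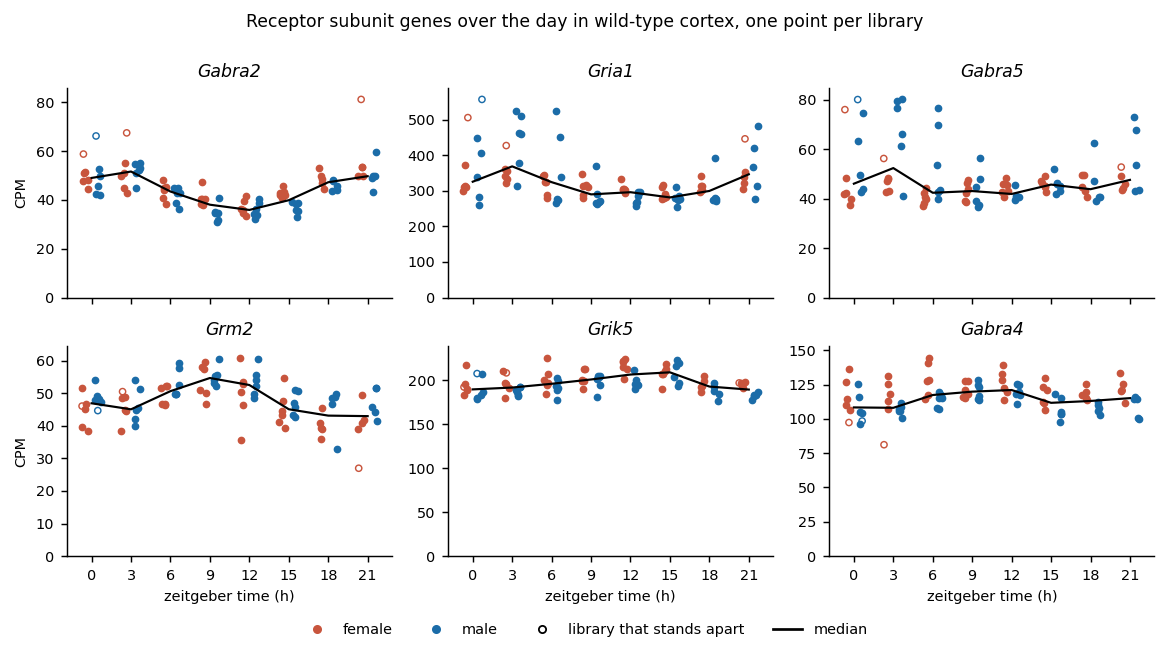
CPM of 6 receptor genes against zeitgeber time (h), 1 point per library, red for females and blue for males, open for libraries that stood apart, with a line through the medians. The Gabra2 median is lowest at ZT12, at 35.9, and high Gabra5 and Gria1 points at ZT0 and ZT3 are mostly males.

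Gria1, an AMPA subunit required for several forms of synaptic plasticity, had 313, 369 and 524 CPM (lowest, median, highest) at ZT3 and 256, 282 and 317 at ZT15. The ranges met only at their edge, but the ZT3 spread (SD 74.3, n = 12) was wider than that at ZT15 (18, n = 12). The log2 peak-to-trough difference was 0.45 ± 0.07 SE, with the peak at ZT1.17 (adjusted p = 3.52e-07 by edgeR's quasi-likelihood test). It was 0.38 without the libraries that stood apart and 0.30 with the 3 marker covariates. In males at ZT3 the median was 462 CPM, in females 350. The other AMPA genes moved less: Gria4, common in fast interneurons, peaked at ZT12.3 (0.12 ± 0.03, adjusted p = 4.41e-04), Gria2 at ZT21.8 (0.08 ± 0.02) and Gria3 at ZT19.2 (0.08 ± 0.03). Gria3 was near the threshold (adjusted p = 0.0478 by edgeR's quasi-likelihood test) and was called in neither sex alone. Its call was lost with time as 8 levels, and with each library's slope of log2 CPM on exon length as a covariate.

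Grm2, a presynaptic group II autoreceptor, had the largest rhythm of the called members with peaks between ZT6 and ZT18. Its lowest, median and highest values were 46.7, 54.7 and 60.6 CPM at ZT9 and 27, 43 and 51.7 at ZT21. The ranges overlap little. The log2 difference was 0.32 ± 0.05 SE with the peak at ZT8.51 (adjusted p = 2.88e-07 by edgeR's quasi-likelihood test), 0.29 without the libraries that stood apart and 0.31 with the covariates. Grm3, of the same group II, peaked at ZT10.8 (0.16 ± 0.04).

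Grm5, a group I gene whose receptor raises calcium through phospholipase C, peaked near lights on, at ZT0.675 (0.21 ± 0.05 SE, adjusted p = 0.00148 by edgeR's quasi-likelihood test). Grm8, of group III, peaked at ZT15.4, and Grm4 and Grm7 were not called.

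Grik5 had 191, 209 and 223 CPM at ZT15 and 177, 189 and 197 at ZT21, a small difference with little spread within a time. Its log2 difference was 0.12 ± 0.02 SE (peak ZT11.9, adjusted p = 8.75e-06 by edgeR's quasi-likelihood test), and 0.14 with the covariates. Grid1, a delta receptor gene whose product binds cerebellins at synapses, peaked at ZT2.35 (0.14 ± 0.03, adjusted p = 1.24e-04). Gabbr1, the highest member per kb, stayed between 572 and 702 CPM in all 92 libraries, with a log2 difference of 0.01 ± 0.02 (adjusted p = 0.768). The upper 95% bound of its peak-to-trough ratio was 1.03. This bound is approximate, as the ratio cannot fall below 1. Gabbr2 was at 0.04 ± 0.03 (adjusted p = 0.644).

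Of the 12 tested members without a called rhythm, 4 were NMDA genes. Grin2b was at a log2 of 0.15 ± 0.06 SE (adjusted p = 0.0752), Grin2c at 0.10 ± 0.04 (0.0569), Grin2d at 0.11 ± 0.05 (0.135) and Grin2a at 0.08 ± 0.05 (0.356), each with its adjusted p by edgeR's quasi-likelihood test in parentheses. The approximate upper 95% bounds of their peak-to-trough ratios were 1.2, 1.13, 1.14 and 1.13. Grin1 was called with a small difference, 0.09 ± 0.03 (peak ZT14.7, adjusted p = 0.00973), and was not called with the 3 marker covariates. Its medians ran only from 383 CPM at ZT3 to 414 at ZT21. Grik1 (0.17 ± 0.06, adjusted p = 0.0666) and Gabrg1 (0.13 ± 0.05, adjusted p = 0.0995) also missed the threshold.

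At ZT6 the calorimetry and running wheel sets were compared over sex, light cycle and genotype, again by edgeR's quasi-likelihood test with adjustment over 18841 genes. 32 of 38 members differed, where 62.2% of all genes did. 4 were higher in calorimetry (29.3% of all genes were) and 28 lower (32.9% of all genes were). The median log2 difference of the members was -0.17, against -0.02 for all genes. All 4 AMPA, 4 of 6 NMDA, all 7 tested metabotropic glutamate and both GABA-B genes were lower. The labels' library names follow set and sex, and the sets also differ in cage, wheel and light at collection, so these cannot be told apart.

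Grin2b, whose subunit gives NMDA receptors slow decay, had the largest difference. Its lowest, median and highest values were 494, 726 and 955 CPM in calorimetry males (n = 31) and 813, 1215 and 1473 in running wheel males (n = 31). In females they were 1071, 1191 and 1531 (n = 32) against 1078, 1413 and 1738 (n = 32). Calorimetry males were lowest, and the ranges of the sets overlapped in both sexes. The log2 difference was -0.47 ± 0.03 SE (adjusted p = 1.39e-24 by edgeR's quasi-likelihood test).

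Grik3, a kainate subunit gene, had medians of 97.9 CPM in calorimetry and 137 in running wheel males, and of 132 and 157 in females (log2 -0.35 ± 0.02 SE, adjusted p = 3.76e-27 by edgeR's quasi-likelihood test). Grm3 had 148 against 176 in males and 173 against 206 in females (-0.24 ± 0.02, adjusted p = 2.44e-23). Gabbr2 was also lower (-0.29 ± 0.03, adjusted p = 5.09e-19). Higher in calorimetry were Gabrg1 (0.15 ± 0.03), Gabra4 (0.09 ± 0.02), Grin2c (0.10 ± 0.03) and Grik1 (0.10 ± 0.03). The lower genes named here are among those with the smallest p, and the higher ones are all that were called. The call of Grik1 was lost without replicate 1 of every group (adjusted p = 0.197) and with the 3 marker covariates (adjusted p = 0.0585), and that of Grin2c without replicate 1 (adjusted p = 0.0866) or replicate 2 (adjusted p = 0.127).

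In the fit without covariates the set difference was further from 0 in males for many members. In females 4 members were higher (22.9% of all genes) and 19 lower (20.6%); in males 5 were higher (29.4%) and 28 lower (35.5%). The test of the difference between the sexes passed for 24 members, where 51.8% of all genes passed. The set difference was more negative in males for 19 of them (29.1% of all genes) and more positive for 5 (22.7%). Grm3 differed alike in both sexes, -0.24 and -0.24. With each library's slope of log2 CPM on exon length as a covariate, more members differed in females than in males. They were 16 in females (35.8% of all genes) and 6 in males (14.1%).

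Within the classes the set difference was uneven. Of the 7 metabotropic genes Grm4 had the lowest log2 difference (-0.32) and Grm7 the one nearest to 0 (-0.16), and Grm2 was further from 0 in females (-0.34) than in males (-0.15). Among the GABA-A genes of chromosome 7, Gabrg3 fell by 0.58 in males and was at -0.07 in females (adjusted p = 0.154), and Gabra5 was at 0.00172 in males (adjusted p = 0.976). On chromosome 5 Gabra2 (-0.50) and Gabrb1 (-0.42) were lower in calorimetry males, while their neighbours Gabra4 (0.13) and Gabrg1 (0.19) were higher. Gabra3 on the X chromosome was at 0.02 over both sexes (adjusted p = 0.507). With each library's slope of log2 CPM on exon length as a covariate, Gabrb1 was at 0.25 in males (adjusted p = 0.0208), the opposite sign. Gabra2 (-0.22, adjusted p = 0.44), Gabra4 (0.19, adjusted p = 0.199) and Gabrg1 (0.27, adjusted p = 0.177) were then not called in males. In that fit Gabrg3 was at 0.06 in males (adjusted p = 0.754) and 0.28 in females (adjusted p = 1.92e-04). Gabra5 was at 0.39 in males (adjusted p = 0.0102) and Gabra3 at 0.26 over both sexes (adjusted p = 0.00169), by edgeR's quasi-likelihood test. Grm4 was at -0.57 and Grm7 at 0.01 over both sexes, and Grm2 at -0.22 in females and 0.06 in males.

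Of the AMPA genes, Gria1 was lower in both sexes, by a log2 of -0.17 in females and -0.25 in males. Gria2 had a lowest, median and highest of 329, 462 and 616 CPM in calorimetry males and 447, 589 and 647 in running wheel males, and of 481, 602 and 656 against 482, 567.99 and 626 in females. Males of the calorimetry set were low, with some overlap, and females of both sets shared 1 range. The log2 difference was -0.38 in males (adjusted p = 2.27e-20 by edgeR's quasi-likelihood test) and 0.06 in females (adjusted p = 0.141). Grik5, the leading kainate gene, went in opposite directions, -0.11 in females (adjusted p = 0.0023) and 0.11 in males (adjusted p = 0.00147), which left 0.000765 over both. These values also moved with the length slope as a covariate. Gria1 was then at -0.05 in females (adjusted p = 0.493) and -0.02 in males (adjusted p = 0.88), not called in either sex by edgeR's quasi-likelihood test. Gria2 was then at 0.06 in males (adjusted p = 0.635) and at 0.30 in females (adjusted p = 1.58e-07), and Grik5 at -0.15 in males (adjusted p = 0.228), -0.24 in females (adjusted p = 5.03e-05) and -0.20 over both (adjusted p = 0.0169).

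The slope of each library's log2 CPM, as deviations from the gene means, on log2 exon length moved with set and sex. Its mean was 0.0969 ± 0.0181 (SD, n = 32) in running wheel females, 0.0209 ± 0.0244 (n = 31) in running wheel males, 0.0125 ± 0.0286 (n = 32) in calorimetry females and -0.134 ± 0.0334 (n = 31) in calorimetry males. The tested members are long, with a median exon length of 6703.5 bases against 4090 for all genes tested in the atlas. With this slope as a covariate 10 members differed (21.9% of all genes did), 6 higher (11.6% of all genes) and 4 lower (10.3%). Grin2b was then at 0.11 (adjusted p = 0.326), Gabbr2 at 0.05 (adjusted p = 0.688) and Grin2c at -0.33 (adjusted p = 0.00369), all of opposite sign to the fit without it. Grik3 (-0.12) and Grm3 (-0.11) kept their sign and lost their call. So did Gabrg1 (0.21, adjusted p = 0.127), Gabra4 (0.13, adjusted p = 0.201) and Grik1 (0.13, adjusted p = 0.423). The differences of Gabrg1, Gabra4 and Grik1 were no smaller than without the slope, but their SE were larger. The SE went from 0.03 to 0.10 for Gabrg1, from 0.02 to 0.08 for Gabra4 and from 0.03 to 0.11 for Grik1. As the slope moved with set and sex, this fit cannot separate it from them. Oligodendrocyte markers were also higher in calorimetry males, with a median sum of 4628 CPM against 3298 to 3411 in the other set and sex groups, and their part was not tested.

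**Figure D4:**
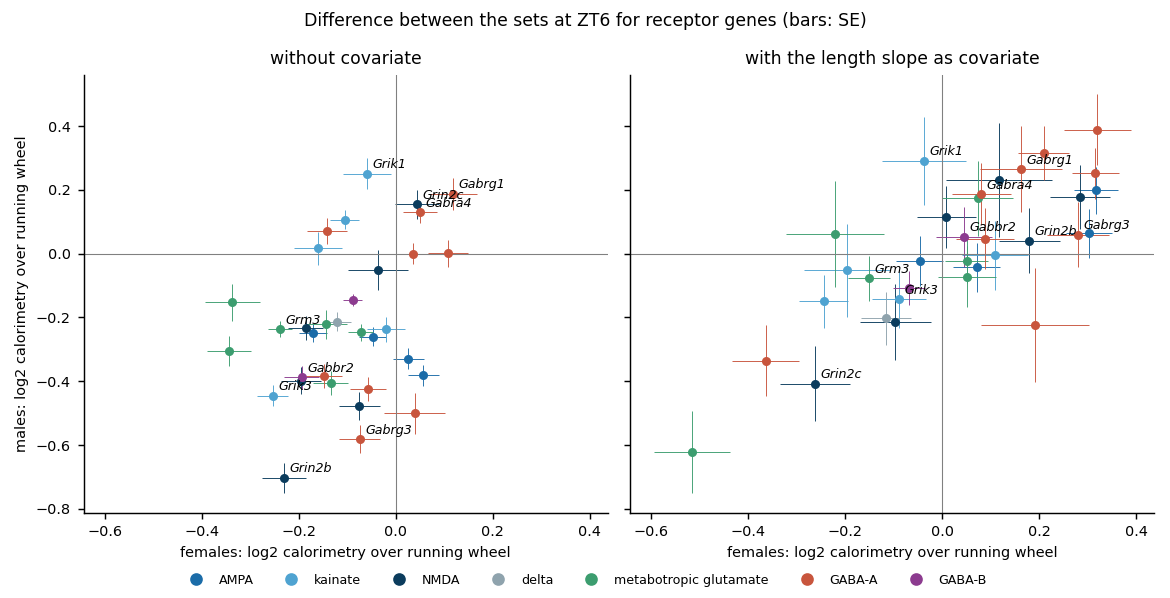
Log2 difference of calorimetry over running wheel at ZT6 in females (x axis) and males (y axis) for 33 receptor genes, with SE bars, without a covariate on the left and with the length slope as covariate on the right. On the left Grin2b is lowest in males at -0.70; on the right it lies above 0.

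The light cycles were compared over both sets and within each. Over both sets 1 member, Gabrd, differed between the cycles (log2 of 11:11 over 12:12 -0.09 ± 0.03 SE, adjusted p = 0.0261 by edgeR's quasi-likelihood test), where 12.6% of all genes did. This call was lost without replicate 3 (adjusted p = 0.132) or replicate 4 (adjusted p = 0.187) of every group, with the length slope (-0.05, adjusted p = 0.4), with the striatal marker sum (adjusted p = 0.0929) and with the 3 marker sums (adjusted p = 0.174). In calorimetry 3 members differed, where 19.6% of all genes did, all of them lower under 11:11, where 9.13% of all genes were lower. In the running wheel set 0 differed (0 at an unadjusted p under 0.05, and 0 by DESeq2), where 0.069% of all genes did.

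In calorimetry, Gabrd had a lowest, median and highest of 21.1, 46 and 60.4 CPM under 11:11 (n = 31) and of 43.4, 50.8 and 72.2 under 12:12 (n = 32). The ranges overlap, and the lowest library is the HET/TG male that stood apart. The log2 difference was -0.18 ± 0.04 SE (adjusted p = 8.00e-04 by edgeR's quasi-likelihood test) and -0.14 without the libraries that stood apart (adjusted p = 7.70e-04). In the running wheel set the medians were 49.2 and 50.2 CPM. Gabra4 (-0.12 ± 0.04, adjusted p = 0.0085) and Grm2 (-0.17 ± 0.06, adjusted p = 0.0268) were the other calls. Grm2 was not called without replicate 2, 3 or 4 of every group (adjusted p = 0.0966, 0.138 and 0.143), nor Gabra4 without replicate 1 or 3 (adjusted p = 0.0528 and 0.0931). With the length slope as covariate Gabrd was at -0.09 (adjusted p = 0.169) and 11 members were lower, where 4.07% of all genes were. Without replicate 3 of every group the adjusted p of Gabrd was 0.0534 and 1 member was called.

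The light cycle difference itself differed between the sets for 1 member, Grm3 (calorimetry minus running wheel, log2 -0.11 ± 0.04 SE, adjusted p = 0.0494 by edgeR's quasi-likelihood test), where 5.32% of all genes were called. Its medians under 11:11 and 12:12 were 156 and 163 CPM in calorimetry and 191 and 183 in the running wheel set. Grm3 was not called without any 1 of the 4 replicate numbers (adjusted p = 0.0895 to 0.317), with the replicate block (adjusted p = 0.0527) or without the filter on low counts (adjusted p = 0.223). Without the libraries that stood apart Grm3 was not called, and Gabra4 was the sole call (-0.16, adjusted p = 0.0120). Without the library labelled HET/WT 0 members were called.

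Gabrg1 (chr5:70751047-70842617, minus strand), a gamma subunit gene with low cortical levels, differed in opposite directions in calorimetry females and males. In females its lowest, median and highest values were 18.9, 20.9 and 23.7 CPM under 11:11 (n = 16) and 20.7, 26.2 and 29.9 under 12:12 (n = 16). In males they were 19.9, 26.4 and 42.5 under 11:11 (n = 15) and 16.2, 22.0 and 31.2 under 12:12 (n = 16). Females were lower and males higher under the shorter cycle, with ranges that overlap in both. The log2 difference was -0.27 ± 0.07 SE in females and 0.27 ± 0.07 in males. The call in males was lost without replicate 3 of every group (0.23, adjusted p = 0.0916 by edgeR's quasi-likelihood test). The test of males minus females gave 0.54 ± 0.10 (adjusted p = 1.97e-04 by edgeR's quasi-likelihood test). It was 0.48 (adjusted p = 2.67e-04) without the libraries that stood apart, which include the male at 42.5 CPM, and 0.55 (adjusted p = 2.20e-04) with the length slope. In the running wheel set Gabrg1 was at -0.10 ± 0.07 in females and 0.07 ± 0.07 in males, neither of them called.

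Grik3 showed the reverse pattern. Its lowest, median and highest values in calorimetry females were 126, 141 and 157 CPM under 11:11 and 112, 124 and 145 under 12:12. In males they were 71.0, 89.1 and 124 under 11:11 and 85.8, 102 and 140 under 12:12. Females were higher and males lower under 11:11, with overlapping ranges. The log2 difference was 0.18 ± 0.05 SE in females and -0.17 ± 0.05 in males, and their difference -0.35 ± 0.07 (adjusted p = 4.73e-04 by edgeR's quasi-likelihood test). It was -0.35 without the libraries that stood apart and -0.31 with the length slope. The call in females was lost with the length slope (0.09, adjusted p = 0.315) and without replicate 2 of every group (adjusted p = 0.0711), and that in males without replicate 2 (adjusted p = 0.0545) or replicate 4 (adjusted p = 0.0848).

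In all, 4 members differed by light cycle in calorimetry females (12.3% of all genes) and 5 in calorimetry males (13.5% of all genes), so these shares were near those of all genes. The light cycle differed between the sexes for 5 members, where 3.91% of all genes did. Besides Gabrg1 and Grik3 these were Grin1 (-0.30), Grin2a (-0.29) and Gabbr2 (-0.24). These 3 lost their call without replicate 1, 2 or 4 of every group (adjusted p = 0.0923 to 0.269), and with the length slope Grin2a (adjusted p = 0.0795) and Gabbr2 (adjusted p = 0.0893) did too. The mean length slope in calorimetry females was 0.0338 ± 0.0178 (SD, n = 16) under 11:11 and -0.00877 ± 0.0203 (n = 16) under 12:12, and in males -0.122 ± 0.0429 (n = 15) and -0.145 ± 0.0153 (n = 16).

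**Figure D5:**
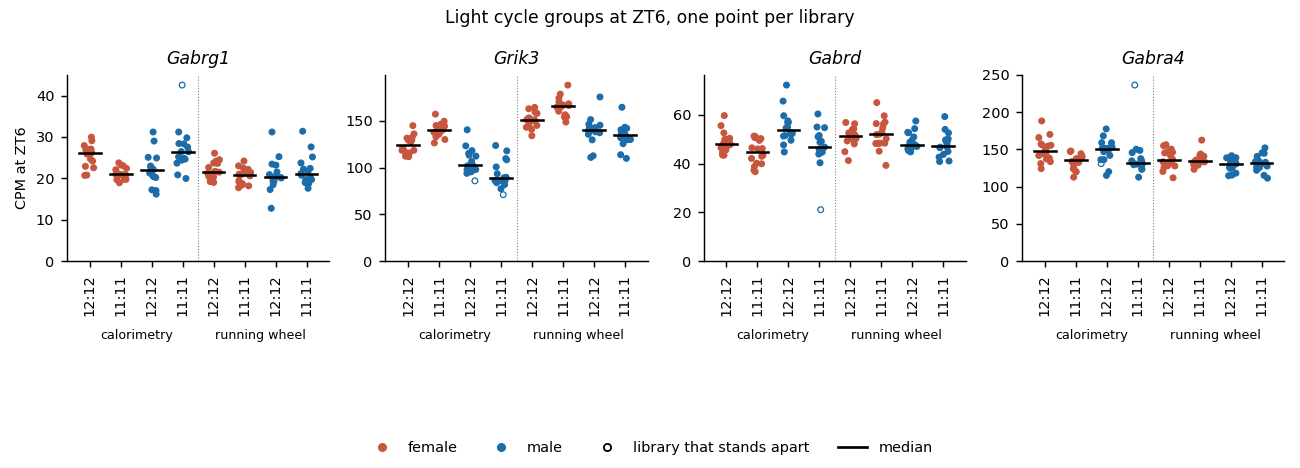
CPM of Gabrg1, Grik3, Gabrd and Gabra4 at ZT6 by set, sex and light cycle, 1 point per library, red for females and blue for males, open for libraries that stood apart, with bars at the medians. In calorimetry the Gabrg1 median goes from 26.2 under 12:12 to 20.9 under 11:11 in females and from 22.0 to 26.4 in males.

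No receptor gene differed between genotypes at ZT6 by edgeR's quasi-likelihood test. Against WT/WT, 0 members passed in HET/WT (0.0425% of all genes), 0 in WT/TG (0.0159%) and 0 in HET/TG (0.0478%). At an unadjusted p under 0.05 there were 1, 0 and 3 members, and DESeq2 called 0 in each. The smallest p in HET/WT was that of Gabbr2, at a log2 of -0.10 ± 0.04 SE (adjusted p = 0.661). In WT/TG it was Grid1 (0.04 ± 0.03, adjusted p = 1) and in HET/TG Grm7 (0.06 ± 0.03, adjusted p = 0.785).

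Gabra5 and Gabrg3 are given for every genotype because they lie beside the Prader-Willi region of chromosome 7, which holds Snord116. Gabra5 had medians of 46.3 CPM in WT/WT (37.1 to 55.2), 44.5 in HET/WT (28.2 to 53.4), 46.6 in WT/TG (33.9 to 65.3) and 44.8 in HET/TG (37 to 56.2). All 4 ranges overlap. The log2 differences from WT/WT were -0.07, 0.04 and -0.04 for Gabra5 and -0.06, -0.02 and -0.003 for Gabrg3, in HET/WT, WT/TG and HET/TG.

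Sex gave many calls in both collections. In the atlas 24 members differed, where 41.1% of all genes did; 6 were higher in males (21% of all genes) and 18 lower (20.1%). Gabrg3, a gamma subunit gene, had medians of 45.6 CPM in females (26.6 to 53.9, n = 46) and 37.1 in males (29.9 to 46.5, n = 46), with a log2 of -0.26 ± 0.03 SE (adjusted p = 4.98e-11 by edgeR's quasi-likelihood test). Grik1 was higher in males (0.22 ± 0.04, adjusted p = 1.88e-05). Striatal markers differed too, with median sums of 611 CPM in females (151 to 1599) and 172 in males (119 to 526.2). With that sum as a covariate 5 members differed (12.7% of all genes), and with the 3 marker sums 8 (13.5%). Grik1 lost its call under both (0.13, adjusted p = 0.135, and 0.12, adjusted p = 0.14).

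At ZT6, 2 members were higher in males (27.6% of all genes) and 28 lower (30.5%). Grin2b (-0.50) and Grik3 (-0.31) were lower, and Grin2c (0.12) and Grik1 (0.13) higher. With the length slope as covariate 7 members differed (8.33% of all genes), and Grin2b (0.03) and Grin2c (-0.28) changed sign. Grik3 (-0.09, adjusted p = 0.387) and Grik1 (0.16, adjusted p = 0.341) lost their call.

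A list of 80 companion genes was read alongside. It held auxiliary subunits and other partners of these receptors, scaffolds, transporters and synthesis enzymes. It also held other GABA and glycine receptor subunit genes, and Grina, Grid2ip, Grifin and Gprc5b. A rhythm was called for 40 of the 74 tested (54.1%, against 41.4% of all genes). Homer1, a scaffold of group I receptors with an activity-induced short form, had a log2 peak-to-trough difference of 0.62 with its peak at ZT20.3. The AMPA receptor partners Cacng8 (0.32, peak ZT1.24) and Cnih2 (0.39, peak ZT1.18) peaked within the interval of Gria1 (ZT0.00811 to ZT2.32). Kctd12, a GABA-B auxiliary gene, peaked at ZT0.471 (0.44), although neither GABA-B subunit gene was called.

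Between the sets 53 of 75 companions differed (70.7%, against 62.2% of all genes), 16 higher and 37 lower in calorimetry. The inhibitory adhesion gene Nlgn2 (-0.33), the AMPA partner Shisa7 (-0.32) and the GABA-B partner Kctd16 (-0.37) were lower, and Cnih2 (0.31) higher. In calorimetry 13 companions differed by light cycle (17.3%, against 19.6% of all genes), 9 higher and 4 lower under 11:11, among them Homer1 (0.28) and Cacng3 (0.17). In HET/WT 0 of 75 passed by edgeR's quasi-likelihood test.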

How the data were processed

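The authors deposited raw counts per gene, 1 table for the 92 atlas libraries and 1 for the 126 ZT6 libraries, with 55487 genes each. The submitters' processing notes name Trim Galore, SAMtools, STAR, limma and mm10, without versions; for the counting program and its strand setting the sources used here give nothing. Of the gene identifiers, 55227 were found in the GENCODE vM21 annotation and 260 were not.

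Counts were filtered with filterByExpr, scaled with TMM and fitted in edgeR 4.0.16 (R 4.3.3) by the quasi-likelihood test with robust dispersions, and p was adjusted by Benjamini-Hochberg over all genes tested. At ZT6 a mean was fitted for each set, sex, light cycle and genotype, and contrasts were averaged over the other factors. In the atlas, sex and a 24 h cosine and sine were fitted. DESeq2 1.42.0 was an alternative, and the fits were tested on simulated counts. The labels give no pairing by replicate number. The mean correlation of same-numbered libraries was 0.017 at ZT6 (-0.622 to 0.604) and 0.006 in the atlas (-0.534 to 0.591). These means do not test a pairing within part of the groups. No library was a copy of another.

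Named with statistics are called members by smallest p, up to 10 per comparison and direction (5 for set and 2 for sex, narrowed after the values were seen), the member with the smallest p where none was called, and for genotype also Gabra5 and Gabrg3. Some results are not reported here. The members, lists and tests were chosen with earlier results of these data known. Libraries were set apart after seeing the data, by an SD of their deviations from their group over all genes above 0.2 in the atlas and 0.3 at ZT6. CPM used TMM-scaled totals.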

Additional observations from a re-analysis of the deposited data

Results flagged for a closer look

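4 of 14 groups of 10 libraries (7 members among those with the smallest rhythm p, at ZT18 and ZT21) held a library far from the rest. Chance alone gives about 1 in 20 independent groups. These groups are genes read in the same libraries, so their count cannot be set against that rate. At ZT21 these were Gabra2 at 81.1 CPM and Grm2 at 27, both in female replicate 4, 1 of the libraries that stood apart. At ZT18 they were Grid1 at 71.5 CPM and Gabra5 at 62.4.

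The effect of the light cycle differed between groups, by the test of that difference, for 6 results. Between the sets it differed for Grm3 by -0.11 on the log2 scale, a call lost without any 1 of the 4 replicate numbers. Between the sexes in calorimetry (males minus females) it differed for Gabrg1 by 0.54, Grik3 by -0.35, Grin1 by -0.30, Grin2a by -0.29 and Gabbr2 by -0.24, the last 3 of which lost their call without replicate 1, 2 or 4 of every group.

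The set difference (calorimetry minus running wheel) differed between males and females for Grin2b by -0.47, Grik1 by 0.31, Grik3 by -0.19 and Gabbr2 by -0.19 on the log2 scale, by the test of that difference. With the length slope as a covariate Gabbr2 was at 0.01, Grin2b at -0.14 (adjusted p = 0.101) and Grik3 at -0.05 (adjusted p = 0.517), none of them called, and Grik1 at 0.33 (adjusted p = 0.00289). The parts of library depth, tissue mix and length slope in these differences were not tested beyond the fits given.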

How the results depend on the processing

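Of the values of named members under the alternatives, 983 kept direction and side of the threshold, 78 lost their call, 1 gained it and 17 changed sign. Rhythm calls of members ranged from 18 to 27 over all alternatives that used both sexes and all members. With the length slope as covariate 3 of the 8 named set results changed sign and 5 lost their call, and with the 3 marker sums 7 kept both and 1 lost its call. The cause of the changes below was not tested.

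With the length slope as covariate, all genes called fell to 945 for the light cycle, 4128 for the set, 494 for light cycle by set, 1570 for sex at ZT6 and 1744 for the light cycle in calorimetry, and were 30 for rhythm by sex. Members called were 10 for the set, 3 for light cycle by set, 7 for sex at ZT6 and 11 for the light cycle in calorimetry. Values that changed sign were, for the set, Grin2c -0.33, Grin2b 0.11 and Gabbr2 0.049; in females Grin2c -0.26, Grin2b 0.18 and Gabbr2 0.044; in males Grin2c -0.41, Grin2b 0.041 and Gabbr2 0.053. For set by sex Gabbr2 was at 0.0086, and for sex at ZT6 Grin2c at -0.28 and Grin2b at 0.031.

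Without a filter on low counts, members called were 2 for the light cycle (1171 genes higher and 973 lower), 3 for light cycle by set and 1 for HET/TG. All genes called were 107 for HET/WT, 76 for WT/TG, 84 for HET/TG and 208 for the light cycle in running wheel. DESeq2 called 6 genes for WT/TG, 21 for the light cycle in running wheel and 26 for rhythm by sex. Gabrg3 in HET/TG was at 1.4e-05. DESeq2 called 3 members for light cycle by set and 6 for the light cycle in calorimetry (1831 genes higher and 2141 lower). DESeq2's size factors in edgeR gave 2 and 6 members for those 2 comparisons (1732 genes higher and 2006 lower in calorimetry). A mean CPM of at least 1 gave 2 for light cycle by set.

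With the striatal marker sum as covariate, members called were 0 for the light cycle, 2 for light cycle by set, 5 for the light cycle in calorimetry and 5 for sex in the atlas (2186 genes), and 3 genes for the light cycle in running wheel. With 3 marker sums they were 0 (1573 genes), 3, 5 and 8 (2315 genes), and 3 genes. Without the libraries that stood apart, 3 members were called for the light cycle, 6 for it in calorimetry and 1 for rhythm by sex (61 genes). Without the library labelled HET/WT 0 were called for light cycle by set, and without the library richest in ribosomal RNA 1 gene for the light cycle in running wheel. Females alone gave 10 rhythmic members (3186 genes) and males alone 4268 genes. Without members whose exons overlap another gene, 18 remained for set, 17 for sex at ZT6, 1 for the light cycle in calorimetry, 14 for rhythm and 13 for sex in the atlas. This leaves out 19 of the 41 members, so these counts come from a shorter list than the 38 tested. In the main fits 62.2%, 58.1%, 19.6%, 41.4% and 41.1% of all genes were called for these comparisons, in the same order.

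Leaving out each replicate number in turn, genes called ranged from 998 to 1815 for the light cycle, 4 to 5 for HET/WT, 298 to 830 for light cycle by set, 2438 to 2915 for the light cycle in calorimetry, 0 to 21 for it in running wheel and 0 to 22 for rhythm by sex. Members called ranged from 0 to 2 for the light cycle, 0 to 1 for light cycle by set and 1 to 3 in calorimetry. Gabra5 in WT/TG ranged from -0.0086 to 0.0528 and Gabrg3 in HET/TG from -0.038 to 0.015.

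With the replicate number as a block, 0 members were called for light cycle by set, and 24 for rhythm; the counts for the other comparisons stayed within 1.5 times. The numbers share no pairing in the labels, and 48 of 126 ZT6 libraries and 18 of 92 atlas libraries correlated best with one of their own number.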
